A study of Mus musculus with 20 samples.

Results

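Neutrophil maturation and granule genes were followed in mouse tibia as 31 genes of the 54446 in the deposited table. The members are the rows whose Ensembl identifier carries one of 31 symbols chosen as neutrophil genes, and all 31 were found and passed the filter on low counts in every comparison. They were split by role into 4 primary granule genes, 4 other precursor genes, 9 secondary granule genes and 14 genes of mature cells. The 23 genes of the last 2 roles are called late genes. RNA-seq had been performed on tibiae of male C57BL/6J mice aged 3 months, in 20 libraries that form 4 groups of 5. The vehicle-treated group received injection water s.c. for 5 days, and the DEX-treated group received dexamethasone (DEX), a synthetic glucocorticoid, at 1 mg/kg in the same way. The left tibia was loaded axially, with -13 N and 40 cycles per session on days 1 and 3, and the right tibia stayed unloaded. These 2 sessions are those of the labels, whereas the study's text describes more sessions in the week, the last of them a few hours before the tibiae were frozen. No group carries a transgene or a deletion, and no source used here says that marrow was removed before the frozen bone was pulverized, which limits the tibia as a model of one cell type. The study's text calls the mouse material cortical bone with its periosteum, whereas its methods name only the tibiae. In a bulk sample of this kind, more cells of a type and more RNA per cell cannot be told apart.

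Neutrophils are made in the bone marrow through a fixed order of stages. Promyelocytes fill the primary granules with myeloperoxidase and serine proteases, myelocytes and metamyelocytes fill the secondary and tertiary granules with lactoferrin, cathelicidin, lipocalin and collagenase, and segmented cells gain the surface receptors and cytosolic proteins with which they leave the marrow. The granule mRNAs are strongly tied to stage, so that a mature neutrophil holds granule proteins whose mRNA it no longer makes. Long bones hold a large store of such cells next to the osteoblasts, B cell precursors and erythroid cells of the marrow.

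Library totals ranged from 4641437 to 13032018 counts, and members were covered by 27 to 47782 counts per library. Levels are given as CPM, the counts of a gene relative to the total of its library, after TMM scaling over all 20 libraries. The unloaded DEX library 4 was left out of the tests, because the study removed a dataset named DEX-4 whose tibia its text does not name, and it is drawn as an open symbol. The unloaded tibia was chosen as in an earlier report on the series. Its total was 8436133 counts, whereas the loaded DEX library 4, which was kept, had the lowest total, 4641437. In each vehicle group, 1 library carries no number that matches a sample label and is called unnumbered. Between pairs of replicates of a group, the squared difference was 8.82 to 113 times that from counting error alone, averaged over genes. Counts on olfactory and vomeronasal receptor genes and pseudogenes, 1965 genes that bone is not known to use, ran from 232 to 1276 CPM in vehicle libraries and from 811 to 8885 CPM in DEX libraries, with the highest value in the loaded DEX library 4.

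The members were present at levels that differed widely. Scaled by exon length in the unloaded vehicle group, S100a9 was highest at 2084 ± 292 CPM per kb (SD, n = 5). It was followed by S100a8 at 1443 ± 725 and by Ngp at 1379 ± 246 CPM per kb. The means of S100a9 and Ngp both lie within the SD of S100a8, so its place in this order is not firm. Of the primary granule genes, Mpo stood at 277 ± 40.2 and Elane at 202 ± 24.7 CPM per kb, above Ctsg at 35.2 ± 8.19 and Prtn3 at 31.7 ± 7.68. The lowest member was Trem1 at 2.13 ± 0.787 CPM per kb. Markers of promyelocytes, of granule-filling stages and of mature cells were thus all measured in vehicle-treated bone. Some members are neighbors on the chromosome (GRCm38, GENCODE M21): Prtn3 and Elane lie 3072 bases apart on chromosome 10, Fpr1 and Fpr2 lie 3883 bases apart on chromosome 17, and S100a8 and S100a9 lie 22596 bases apart on chromosome 3. Expected counts that were not whole (over 0.005 counts from a whole number), as arise where reads are shared with another annotated feature, occurred in all 20 libraries for Mpo and Itgam, in 15 for Fpr2 and in 2 for Chil3, so the levels of these genes are less certain.

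DEX raised most members, in the unloaded and in the loaded tibia. In unloaded tibiae, 25 of 31 members were higher in the 4 DEX libraries than in the 5 vehicle libraries and 0 were lower. Among all 19738 genes tested, 2.86% were called higher. The median log2 fold change was 1.14 over the members and 0.03 over all genes tested. For 21 members, the lowest DEX library was above the highest vehicle library when CPM were scaled within the comparison, which held for 4.51% of all genes tested. In loaded tibiae (5 libraries a group), 22 members were higher and 0 were lower, against 12.9% of 19780 genes called higher. The median log2 fold change was 1.02 over the members and 0.00 over all genes, and 15 members had groups that did not overlap, against 8.14% of all genes. Both comparisons called 19 members higher, which is 76% of those called in unloaded and 86.4% of those called in loaded tibiae. Over all genes, 270 were called higher in both, which is 47.9% of the 564 called higher in unloaded and 10.6% of the 2554 called higher in loaded tibiae, and both limbs come from the same mice. Gfi1, Il1b and Slpi passed in neither.

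These counts depended on single libraries, on the covariates and on the libraries and block used. With the share of counts on genes of short transcripts (longest form under 1000 bases) as a covariate, an alternative added after seeing the data, 19 members were called in loaded and 27 in unloaded tibiae, where 3.79% and 8.04% of all genes were called higher. With the replicate number as a block, 9 were called in loaded and 8 in unloaded tibiae, against 7.75% and 0.748% of all genes. That fit holds only numbers found in both groups, namely 1, 2, 4 and 5 in loaded and 1, 2 and 5 in unloaded tibiae. DEX and vehicle libraries are of different mice, so a shared number does not mark the same animal there. In the same libraries without the block, 7 and 12 members were called, against 2.78% and 0.99% of all genes. The median log2 fold change of the members was 0.78 in loaded and 0.99 in unloaded tibiae with the block and 0.91 and 1.00 without it, and 30 of 31 members were above 0 in each of these 4 fits. Without the unloaded DEX library 3, 5 members were called in unloaded tibiae (Chil3, Ly6g, Mmp8, Il1r2 and Fpr2), against 0.236% of all genes called higher in that fit. Without the unloaded vehicle library 5, 16 were, against 0.956% of all genes. In these last 2 fits calls became fewer over all genes as well. With the receptor gene counts as a covariate, 1 member, Mmp8, was called in loaded tibiae, where 0.0202% of all genes were called higher, and 26 were called in unloaded tibiae, against 7.72%. In loaded tibiae these receptor counts did not overlap between groups (232 to 913 CPM with vehicle, 1092 to 8885 CPM with DEX). The covariate and DEX therefore cannot be told apart there. In unloaded tibiae the receptor counts overlapped (346 to 1276 and 811 to 3257 CPM). The median log2 fold change of the members in loaded tibiae was 1.10 in that fit. In the same fit S100a8 stood at 0.09, Camp at 0.32 and Wfdc21 at 0.77 log2 fold change, all nearer to 0 than without the covariate, and Slpi was at -0.09, below 0. Ltf, Itgam, Padi4, Clec4d and Trem1 were the least firm calls in unloaded tibiae, lost without vehicle library 1, 2, 4 or 5 or DEX library 3 or 5, and all but Padi4 also without DEX library 2. Csf3r was lost without vehicle library 5 or DEX library 3 or 5, and Ngp and Anxa1 without vehicle library 4 or 5 or DEX library 3 or 5. Cd177 was lost without vehicle library 5 (adjusted p = 0.0501) or DEX library 3 (adjusted p = 0.0790). In loaded tibiae, S100a9 was lost without vehicle library 1, 2 or unnumbered, Anxa1 without vehicle library 1 or unnumbered, Trem1 without vehicle library 1 and S100a8 without the unnumbered one.

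**Figure D1:**
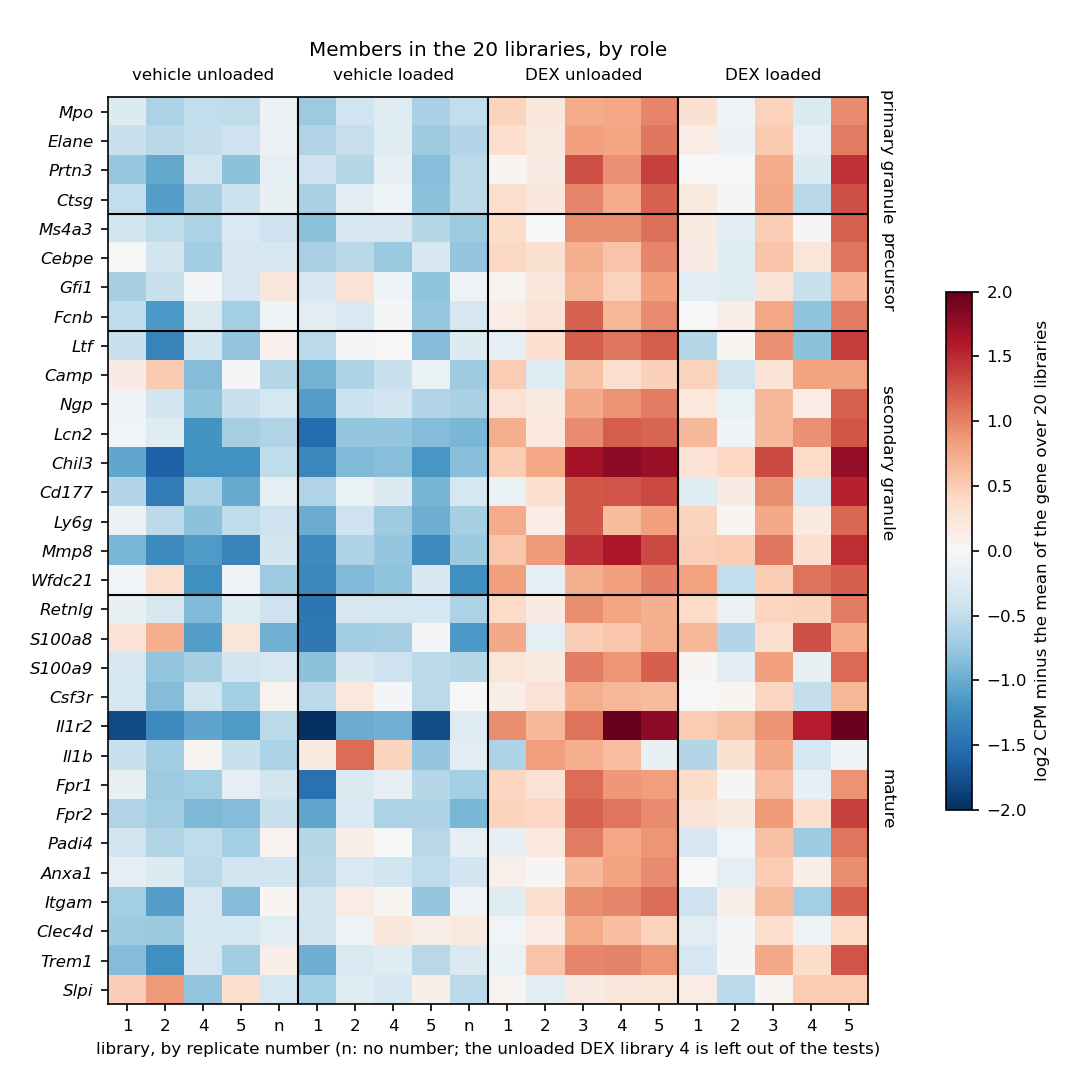
Heat map of the 31 members (rows, by role) in the 20 libraries (columns, by group and replicate number, n for unnumbered), colored by log2 CPM minus the mean of each gene over the 20 libraries. Most rows are blue in the 10 vehicle libraries and red in unloaded DEX libraries 3, 4 and 5 and loaded DEX libraries 3 and 5, with paler colors in DEX libraries 1 and 2, and Il1b and Slpi do not follow the other rows.

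The primary granule genes come first in neutrophil development, and all 4 were higher under DEX in both limbs. Mpo (chr11:87793581-87804413) encodes myeloperoxidase, which makes hypochlorous acid. Its level was 1033, 800.3, 887, 873 and 1142 CPM in unloaded vehicle libraries 1, 2, 4, 5 and unnumbered, and 1695, 1453, 2088 and 2433 CPM in unloaded DEX libraries 1, 2, 3 and 5. In loaded tibiae it was 752, 939.8, 1044, 789.9 and 879 CPM with vehicle (same numbers) and 1541, 1188, 1715, 1021 and 2379 CPM with DEX (libraries 1 to 5). The groups did not overlap in the unloaded limb. In the loaded limb, DEX library 4 lay just below vehicle library 4 on this scale and just above it when scaled within the comparison. Relative to vehicle, Mpo was 2.06-fold higher in unloaded (log2 fold change 1.04 ± 0.20 (SE), adjusted p = 0.0152) and 1.84-fold higher in loaded tibiae (0.88 ± 0.23, adjusted p = 0.0215).

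Elane (chr10:79886247-79888215) encodes neutrophil elastase, a serine protease. It stood at 193, 178, 188, 196 and 241 CPM in unloaded vehicle and at 329.9, 295, 460.0 and 546 CPM in unloaded DEX libraries. The loaded vehicle libraries held 173, 191, 222, 159.7 and 174 CPM and the loaded DEX libraries 292, 241, 378, 235 and 539 CPM. No DEX library fell to the level of a vehicle library of the same limb. The difference was a log2 fold change of 1.06 ± 0.20 (SE), adjusted p = 0.0139 in unloaded and 0.92 ± 0.22, adjusted p = 0.0159 in loaded tibiae.

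Prtn3 (chr10:79874476-79883174), the gene of proteinase 3, lies next to Elane. It measured 49.6, 40.8, 63.2, 47.3 and 73.7 CPM in unloaded vehicle and 85.5, 93.0, 204 and 216 CPM in unloaded DEX libraries. In the loaded limb, vehicle libraries held 62.6, 56.3, 74.1, 46.0 and 58.0 CPM and DEX libraries 84.3, 83.9, 140.1, 69.3 and 228 CPM. The loaded groups overlapped, since the loaded DEX library 4 lay below the loaded vehicle library 4. Prtn3 had the largest change of the 4 in both limbs, with a log2 fold change of 1.48 ± 0.30 (SE), adjusted p = 0.0165 in unloaded and 1.07 ± 0.29, adjusted p = 0.0217 in loaded tibiae.

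Ctsg (chr14:56099881-56102574) encodes cathepsin G, another serine protease. Unloaded libraries held 37.4, 24.5, 33.3, 39.1 and 47.6 CPM with vehicle and 67.1, 61.8, 104 and 119 CPM with DEX. Loaded libraries held 33.5, 45.0, 49.6, 29.7 and 36.8 CPM with vehicle and 60.5, 51.1, 88.9, 35.7 and 129 CPM with DEX. Again only the loaded groups overlapped, through the loaded DEX library 4. The change was a log2 fold change of 1.30 ± 0.23 (SE), adjusted p = 0.0115 in unloaded and 0.96 ± 0.28, adjusted p = 0.0325 in loaded tibiae. The loaded call of Ctsg was lost in 6 of 10 fits that left out 1 library (vehicle 1, 2, 5 or unnumbered, DEX 3 or 5), with adjusted p-values of up to 0.0803. Loaded Mpo lost its call without vehicle library 1, 2 or unnumbered (highest adjusted p = 0.0663) and loaded Prtn3 without vehicle library 2 or unnumbered (highest adjusted p = 0.0562). In the unloaded DEX library 4, which the tests left out, Mpo stood at 2117, Elane at 454, Prtn3 at 157 and Ctsg at 88.3 CPM, within the range of the libraries kept. In unloaded tibiae, leaving out DEX library 3 took the call from all 4, with adjusted p-values of 0.0569 to 0.0759.

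**Figure D2:**
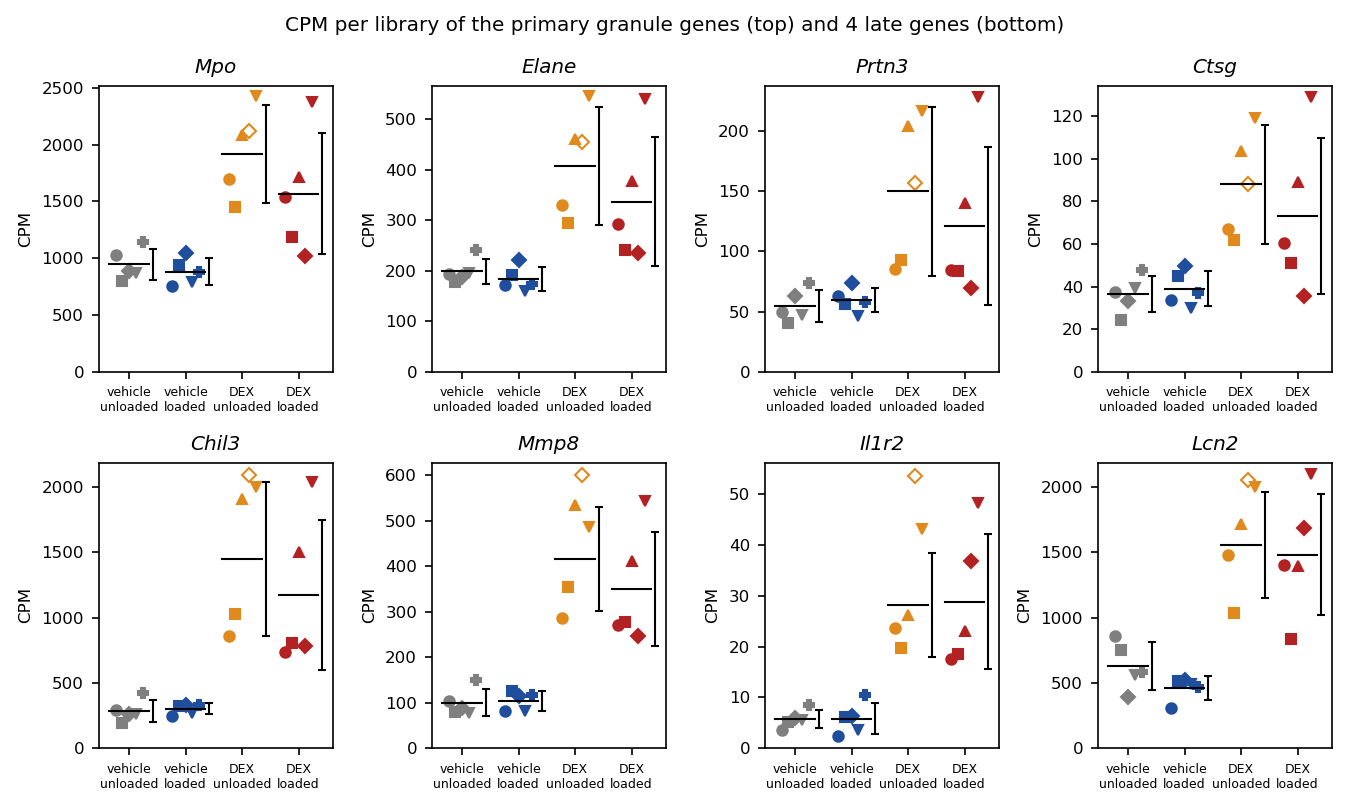
CPM per library (y axis, linear from 0) of 8 members in the 4 groups, with 1 point per library, marker shape by replicate number, an open diamond for the unloaded DEX library 4, a line at the mean and a bar of 1 SD. For Mpo, the unloaded DEX libraries used in the test sit between 1453 and 2433 CPM, all above the unloaded vehicle libraries, and in the loaded DEX group library 5 is the highest in each panel.

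The sequences before the starts of the primary granule genes are shown because these 4 genes moved together, beside those of 3 secondary granule genes with large rises. RefSeq promoter windows (GRCm38.p6, 250 bases before the start) were matched for 29 members. In capitals are the letters GAGGAA, the core of PU.1 sites, on either strand (TTCCTC on the other), TTGCNNAA, a core of C/EBP sites, on either strand, and ACANNNTGT, a core of glucocorticoid receptor sites, on either strand. Each sequence is the longest stretch of the window outside GENCODE exons, read 5′ to 3′ on the strand of the gene. The Prtn3 window lies inside the longer GENCODE gene, before the RefSeq start.
Mpo (chr11:87793534-87793580, plus strand): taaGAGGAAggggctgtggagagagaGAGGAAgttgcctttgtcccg
Elane (chr10:79886062-79886246, plus strand): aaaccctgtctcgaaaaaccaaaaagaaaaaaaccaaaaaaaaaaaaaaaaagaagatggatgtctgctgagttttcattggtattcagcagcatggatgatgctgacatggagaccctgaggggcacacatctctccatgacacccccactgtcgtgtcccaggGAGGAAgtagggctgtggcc
Prtn3 (chr10:79879417-79879613, plus strand): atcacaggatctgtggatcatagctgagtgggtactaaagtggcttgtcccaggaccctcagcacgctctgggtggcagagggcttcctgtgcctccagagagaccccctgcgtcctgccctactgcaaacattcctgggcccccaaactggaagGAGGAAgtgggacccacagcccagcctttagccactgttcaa
Ctsg (chr14:56102575-56102824, minus strand): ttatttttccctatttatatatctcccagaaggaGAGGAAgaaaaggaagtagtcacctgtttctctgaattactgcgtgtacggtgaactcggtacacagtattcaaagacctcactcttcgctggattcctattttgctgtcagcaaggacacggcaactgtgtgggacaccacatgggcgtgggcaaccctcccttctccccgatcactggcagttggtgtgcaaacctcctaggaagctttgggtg
Chil3 (chr3:106167565-106167814, minus strand): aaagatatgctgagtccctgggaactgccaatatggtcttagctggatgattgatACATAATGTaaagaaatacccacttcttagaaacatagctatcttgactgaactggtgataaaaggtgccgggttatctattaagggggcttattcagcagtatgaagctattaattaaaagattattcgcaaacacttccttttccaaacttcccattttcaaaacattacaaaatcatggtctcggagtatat
Mmp8 (chr9:7558179-7558428, plus strand): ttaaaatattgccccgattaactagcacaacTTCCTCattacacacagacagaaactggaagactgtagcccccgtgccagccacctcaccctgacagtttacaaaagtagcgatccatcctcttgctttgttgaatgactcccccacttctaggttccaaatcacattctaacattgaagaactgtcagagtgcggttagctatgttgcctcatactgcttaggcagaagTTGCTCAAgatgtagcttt
Cd177 (chr7:24760312-24760561, minus strand): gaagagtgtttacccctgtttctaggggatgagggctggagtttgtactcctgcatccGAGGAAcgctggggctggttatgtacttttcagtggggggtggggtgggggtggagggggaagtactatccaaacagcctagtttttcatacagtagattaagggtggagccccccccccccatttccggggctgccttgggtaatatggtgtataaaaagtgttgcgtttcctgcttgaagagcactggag
GAGGAA occurred in the windows of all 4 primary granule genes, in 5 of 8 secondary granule genes, in 7 of 14 mature genes and in 0 of 3 precursor genes, against 25.9% of 27025 genes. TTGCNNAA was found in 0 of 4 primary granule, 5 of 8 secondary granule, 4 of 14 mature and 2 of 3 precursor genes, against 10.8% of all genes. ACANNNTGT was found in Chil3, Lcn2 and Trem1, which is 10.3% of the 29 members against 6.76% of all genes. These are matches of letters, not measured sites.

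The other precursor genes mark the same early stages. In unloaded tibiae, 3 of 4 were higher under DEX. Ms4a3, a membrane protein of granulocyte progenitors, rose by a log2 fold change of 1.14 ± 0.21 (SE), adjusted p = 0.0139. Fcnb, which encodes the lectin ficolin B, rose by 1.22 ± 0.25, adjusted p = 0.0174 and Cebpe, the transcription factor that secondary granule genes need, by 0.97 ± 0.18, adjusted p = 0.0140. Gfi1, a transcriptional repressor needed for neutrophil commitment, was at 15.4 ± 3.80 CPM with vehicle (SD, n = 5) and 24.8 ± 6.15 CPM with DEX (n = 4) and did not pass (adjusted p = 0.0665, DESeq2 0.0277). In loaded tibiae, Cebpe (1.08 ± 0.22, adjusted p = 0.00803) and Ms4a3 (1.00 ± 0.24, adjusted p = 0.0140) were higher. Fcnb (0.71 ± 0.27, adjusted p = 0.0721) and Gfi1 (0.28 ± 0.23, adjusted p = 0.389) did not pass. For loaded Fcnb the adjusted p was 0.0451 with DESeq2, and with edgeR and both DEX libraries 4 left out it was 0.0184, at a log2 fold change of 0.89.

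The secondary granule genes held the largest rises among the granule genes. Of 9, 7 were higher in unloaded and 8 in loaded tibiae, with a median log2 fold change of 1.29 and 1.35, respectively. Chil3 encodes a chitinase-like lectin of neutrophils and macrophages. It measured 292, 197, 261, 260.5 and 422 CPM in unloaded vehicle and 856, 1031, 1909 and 1997 CPM in unloaded DEX libraries. With loading, it measured 247, 327, 334, 269.8 and 335 CPM in vehicle and 738, 806, 1502, 786 and 2034 CPM in DEX libraries. The lowest DEX library was thus far above the highest vehicle library in both limbs. Chil3 rose 5.17-fold in unloaded (log2 fold change 2.37 ± 0.30 (SE), adjusted p = 0.00386) and 4.00-fold in loaded tibiae (2.00 ± 0.29, adjusted p = 0.00157).

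Mmp8, the neutrophil collagenase, stood at 103, 80.6, 89.3, 77.5 and 151 CPM in unloaded vehicle and 287, 354, 534 and 486 CPM in unloaded DEX libraries. Loaded values were 82.0, 127, 115, 81.1 and 117 CPM with vehicle and 271, 277, 411, 247 and 543 CPM with DEX. The groups were separate in both limbs. Mmp8 rose 4.21-fold (log2 fold change 2.08 ± 0.24 (SE), adjusted p = 0.00386) and 3.46-fold (1.79 ± 0.23, adjusted p = 7.75e-04), and its call held in every fit that left out 1 library and in all 11 other alternatives of each comparison.

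Lcn2 encodes the neutrophil gelatinase-associated lipocalin, which binds bacterial siderophores. Loaded vehicle libraries held 306, 519, 524, 492 and 471 CPM and loaded DEX libraries 1403, 836, 1394, 1688 and 2099 CPM. Vehicle library 1 was lowest, and no vehicle library reached the lowest DEX library. The change in loaded tibiae was a log2 fold change of 1.73 ± 0.26 (SE), adjusted p = 0.00170, and in unloaded tibiae it was 1.32 ± 0.26, adjusted p = 0.0160. Wfdc21, a small whey acidic protein, was at 19.7, 26.2, 27.8, 38.5 and 20.7 CPM in loaded vehicle and 84.5, 34.5, 68.5, 103 and 110.2 CPM in loaded DEX libraries. The groups overlapped through DEX library 2, and Wfdc21 was higher in loaded (1.64 ± 0.29, adjusted p = 0.00416) but did not pass in unloaded tibiae (0.93 ± 0.31, adjusted p = 0.0875), where the adjusted p was 0.0301 with DESeq2.

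Cd177, a surface glycoprotein of neutrophils, was at 115, 65.1, 110.3, 85.8 and 152 CPM in unloaded vehicle and 156, 214, 408 and 427 CPM in unloaded DEX libraries. These groups were separate by a small gap, between the unnumbered vehicle library and DEX library 1. Its change was a log2 fold change of 1.55 ± 0.32 (SE), adjusted p = 0.0178 in unloaded and 1.08 ± 0.32, adjusted p = 0.0332 in loaded tibiae, where the call was lost in the same 6 fits as that of Ctsg (highest adjusted p = 0.0791). Ly6g, the surface antigen by which mouse neutrophils are sorted, was higher by 1.27 ± 0.21, adjusted p = 0.00999 and 1.35 ± 0.21, adjusted p = 0.00234, and Ngp, a neutrophilic granule protein, by 1.02 ± 0.24, adjusted p = 0.0285 and 1.14 ± 0.27, adjusted p = 0.0141. Ltf, which encodes lactoferrin, passed in unloaded (1.29 ± 0.33, adjusted p = 0.0401) and not in loaded tibiae (0.79 ± 0.38, adjusted p = 0.147). Camp, the cathelicidin gene, passed in loaded (1.03 ± 0.24, adjusted p = 0.0142) and not in unloaded tibiae (0.44 ± 0.28, adjusted p = 0.357).

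Among the 14 genes of mature cells, 11 were higher in unloaded and 8 in loaded tibiae, with median log2 fold changes of 0.99 and 0.91. Il1r2, which encodes the decoy receptor that captures interleukin-1, had the largest change of all members in loaded tibiae and the next to largest, after Chil3, in unloaded tibiae. It measured 3.58, 5.20, 5.97, 5.67 and 8.58 CPM in unloaded vehicle and 23.8, 19.7, 26.3 and 43.1 CPM in unloaded DEX libraries. In loaded tibiae it measured 2.46, 6.25, 6.38, 3.62 and 10.4 CPM with vehicle and 17.6, 18.6, 23.1, 36.8 and 48.2 CPM with DEX. Every DEX library was above every vehicle library of either limb. Il1r2 was 4.94-fold higher in unloaded (log2 fold change 2.31 ± 0.27 (SE), adjusted p = 0.00386) and 5.09-fold higher in loaded tibiae (2.35 ± 0.38, adjusted p = 0.00254). Il1b, the cytokine that this receptor binds, was at 5.17 ± 1.15 and 8.57 ± 3.84 CPM in unloaded vehicle and DEX libraries (SD, n = 5 and 4) and did not pass (0.74 ± 0.29, adjusted p = 0.145 in unloaded, -0.15 ± 0.33, adjusted p = 0.767 in loaded tibiae).

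Fpr2, a formyl-peptide receptor that steers migration, was at 11.1, 10.4, 9.01, 9.27 and 12.4 CPM in unloaded vehicle and 22.9, 22.4, 38.0 and 32.3 CPM in unloaded DEX libraries. It was at 8.20, 13.7, 10.9, 11.0 and 8.97 CPM in loaded vehicle and 20.1, 19.1, 30.5, 20.9 and 43.4 CPM in loaded DEX libraries. The groups did not overlap in either limb. Fpr2 was higher by a log2 fold change of 1.49 ± 0.19 (SE), adjusted p = 0.00386 and 1.40 ± 0.24, adjusted p = 0.00341. Its neighbor Fpr1 was higher by 1.14 ± 0.20, adjusted p = 0.0116 and 1.02 ± 0.25, adjusted p = 0.0169, and Anxa1, which encodes annexin A1, a ligand of these receptors, by 0.86 ± 0.21, adjusted p = 0.0312 and 0.81 ± 0.20, adjusted p = 0.0175. Retnlg, a resistin-like secreted protein, and Trem1, an activating receptor, were also higher in both limbs, with log2 fold changes of 0.98 and 1.18 in unloaded and 1.09 and 1.02 in loaded tibiae.

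Other mature genes passed in 1 limb. Csf3r, the receptor for granulocyte colony-stimulating factor, was higher in unloaded (0.90 ± 0.20, adjusted p = 0.0218) and did not pass in loaded tibiae (0.38 ± 0.21, adjusted p = 0.205). The same was true of Itgam, the integrin chain CD11b (1.20 ± 0.29, adjusted p = 0.0324 and 0.55 ± 0.31, adjusted p = 0.212), of Padi4, which citrullinates histones (1.00 ± 0.25, adjusted p = 0.0340 and 0.52 ± 0.29, adjusted p = 0.202), and of the lectin receptor Clec4d (0.84 ± 0.20, adjusted p = 0.0313 and 0.13 ± 0.18, adjusted p = 0.627). S100a9 was higher in both limbs (1.25 ± 0.25, adjusted p = 0.0167 and 1.00 ± 0.28, adjusted p = 0.0249), whereas S100a8, its partner in calprotectin, passed in loaded (1.36 ± 0.35, adjusted p = 0.0183) and not in unloaded tibiae (0.49 ± 0.37, adjusted p = 0.430). Slpi, an inhibitor of elastase and cathepsin G, had log2 fold changes of -0.13 and 0.53 and did not pass. None of these differences between the limbs passed a test of their own, as the interaction results show.

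**Figure D3:**
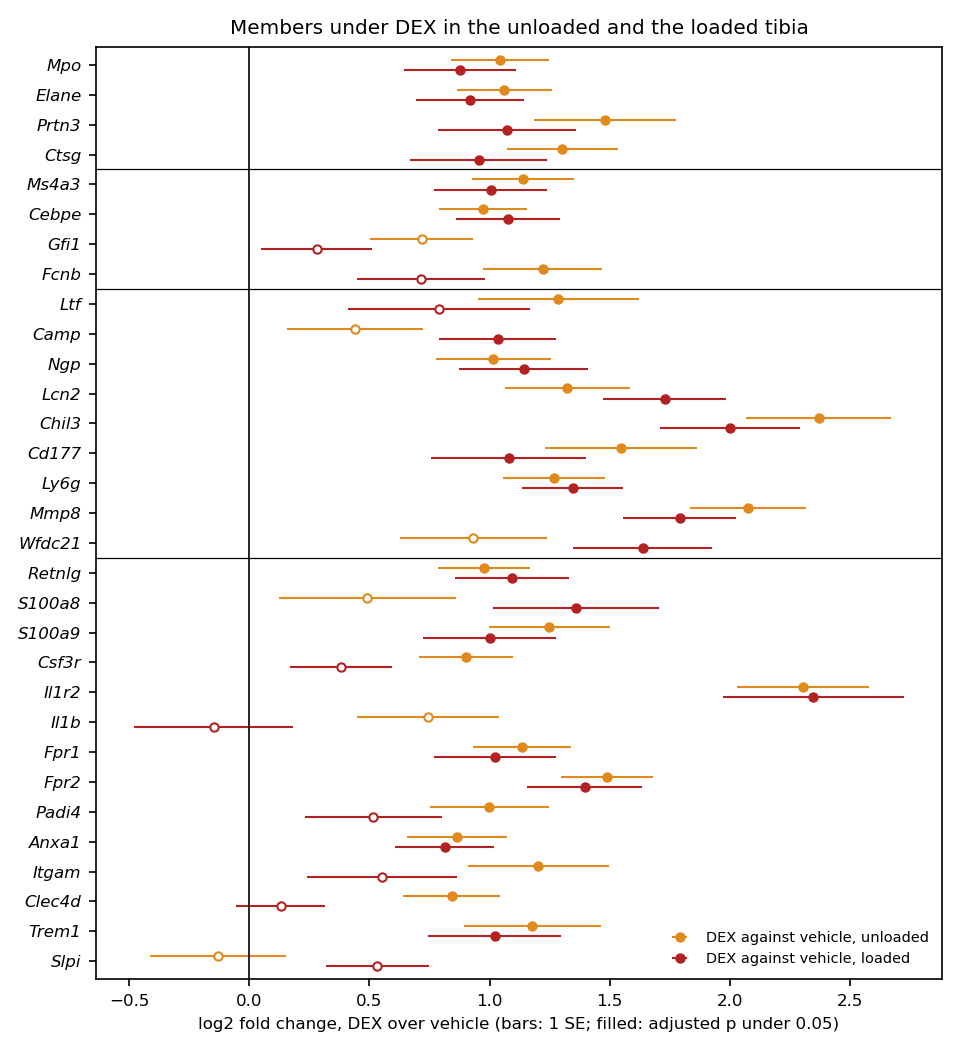
Log2 fold change of each member (rows, by role from primary granule genes at the top to mature genes at the bottom) for DEX over vehicle in unloaded (orange) and loaded (red) tibiae, with bars of 1 SE and filled points for an adjusted p under 0.05. In unloaded tibiae 25 points are filled and in loaded tibiae 22, all to the right of 0, with Il1r2, Chil3 and Mmp8 farthest to the right.

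Whether primary granule genes rose more or less than late genes under DEX depended on the late genes they were set against. For each library, the mean log2 CPM of the 23 late genes was taken from the mean of Mpo, Elane, Prtn3 and Ctsg. This difference was 0.86 ± 0.20 in unloaded vehicle (SD, n = 5), 0.91 ± 0.21 in loaded vehicle (n = 5), 0.90 ± 0.12 in unloaded DEX (n = 4) and 0.76 ± 0.25 in loaded DEX libraries (n = 5). The mean of the primary granule genes itself went from 7.11 ± 0.24 to 8.25 ± 0.47 log2 CPM in unloaded and from 7.11 ± 0.21 to 7.93 ± 0.59 in loaded tibiae. The mean of the late genes went from 6.24 ± 0.15 to 7.35 ± 0.38 and from 6.20 ± 0.25 to 7.16 ± 0.45 log2 CPM. Under DEX, the primary-minus-late difference thus moved by 0.04 in unloaded and -0.14 in loaded tibiae, both less than 1 SD between replicates. Against the 9 secondary granule genes alone it moved by -0.17 and -0.44, and against the 14 mature genes alone by 0.17 and 0.05. The loaded DEX library 4 was at 0.33, while the other 4 of its group were at 0.81 to 0.96, and without it the loaded change was -0.04 against all late genes, -0.34 against the secondary granule genes and 0.16 against the mature genes. Since the members were chosen with results of these data known, this difference is described and not tested.

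**Figure D4:**
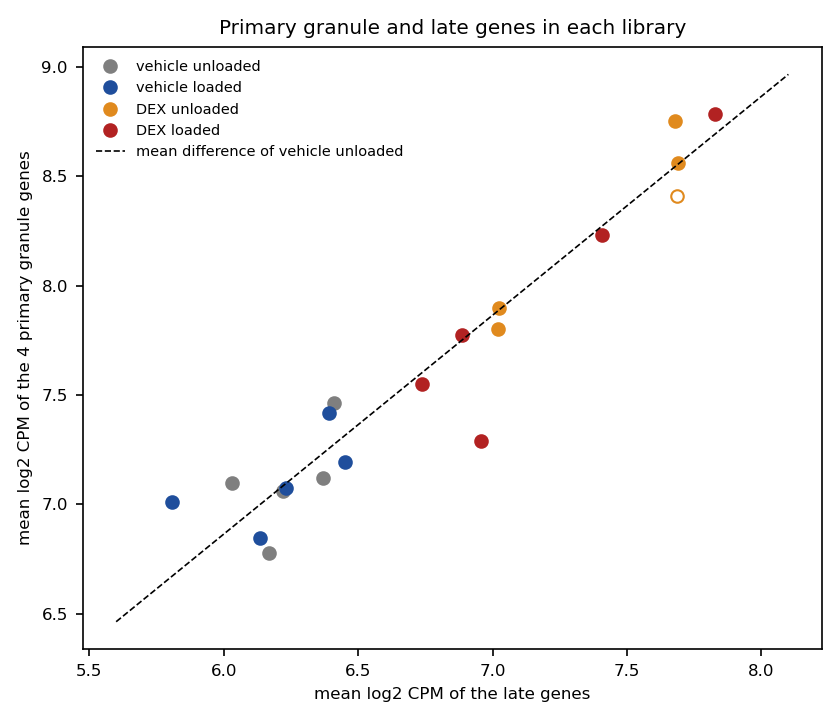
Mean log2 CPM of the 4 primary granule genes (y axis) against that of the 23 late genes (x axis), 1 point per library, colored by group, with the unloaded DEX library 4 open and a dashed line at the mean difference of the unloaded vehicle group, 0.86. Libraries of all 4 groups lie along the line, DEX libraries farther up, and the loaded DEX library 4 lies below it.

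No member passed the test for loading under either treatment. In vehicle-treated mice, 0 of 31 members and 0 of 17982 genes (0%) passed the edgeR test, and 0 members and 141 genes passed with DESeq2. At an unadjusted p under 0.05 stood 4 members (Clec4d, Wfdc21, Il1b and Lcn2), against 9.86% of all genes. Clec4d, which had the lowest p, was at 5.44, 5.30, 7.02, 6.95 and 7.59 CPM in unloaded and 6.75, 8.40, 10.4, 9.83 and 10.1 CPM in loaded vehicle libraries. The groups overlapped, and the change was a log2 fold change of 0.46 ± 0.17 (SE), adjusted p = 0.427. Wfdc21 was at 46.4, 60.1, 20.6, 46.0 and 29.4 CPM in unloaded and at the loaded vehicle values given above, with -0.65 ± 0.29, adjusted p = 0.495. Il1b was at 5.04, 4.24, 7.12, 5.02 and 4.40 CPM in unloaded and 7.75, 14.8, 9.39, 4.01 and 5.86 CPM in loaded vehicle libraries (0.66 ± 0.30, adjusted p = 0.501), with loaded library 2 far above the rest. The 4 primary granule genes had log2 fold changes of -0.14 to 0.09 with loading.

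In DEX-treated mice, 0 members and 0 of 22541 genes (0%) passed the edgeR test for loading, 0 members and 0 genes passed with DESeq2, and 0 members against 4.25% of all genes had an unadjusted p under 0.05. The log2 fold changes of the members ran from -0.42 to 0.08, with a median of -0.27 against 0.02 over all genes, and 27 of 31 were below 0. With both DEX libraries 4 left out, the median of the members was -0.13, and with the receptor covariate it was -0.05, with 12 of 31 above 0. With both libraries 4 left out, 1 of 31 was above 0, and 0 of 31 were with the replicate number as a block (median -0.16), with no filter except 1 count in total (median -0.34), and with the loaded in place of the unloaded DEX library 4 left out (median -0.19). The lowest p-values were those of Gfi1, Fpr1 and Clec4d. Gfi1 was at 18.5, 21.0, 28.2 and 31.7 CPM in unloaded and 15.3, 15.1, 21.4, 13.1 and 28.9 CPM in loaded DEX libraries, which overlapped (log2 fold change -0.42 ± 0.27 (SE), adjusted p = 0.733). Fpr1 was at 16.6, 15.1, 26.6 and 22.0 and 15.8, 12.5, 18.8, 11.0 and 23.0 CPM (-0.33 ± 0.26, adjusted p = 0.733), and Clec4d at 8.56, 9.91, 14.9 and 12.3 and 7.65, 8.72, 11.4, 8.50 and 11.8 CPM (-0.27 ± 0.23, adjusted p = 0.733), again with overlap. Both limbs came from the same animals, but no source says that a replicate number marks a mouse. In the 4 same-numbered pairs of DEX libraries kept (1, 2, 3 and 5), 6 members were lower in the loaded library of every pair (Mpo, Elane, Gfi1, S100a9, Anxa1 and Clec4d), against 9.7% of 22659 genes. None was higher in every pair, against 8.31% of all genes. In the 4 pairs of vehicle libraries, 0 members were lower in every pair, against 9.68%, and 2 were higher in every pair (Itgam and Clec4d), against 8.54% of all genes. With the number as a block, 0 members passed in DEX-treated mice, and 4 members and 1694 of 21184 genes had an unadjusted p under 0.05.

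The interaction asked whether the loading response differed between treatments. No member and 0 of 23653 genes (0%) passed with edgeR, and 0 members and 50 genes passed with DESeq2. At an unadjusted p under 0.05 stood 1 member, Clec4d, against 12.1% of all genes. Clec4d had an interaction of -0.74 ± 0.28, adjusted p = 0.382 on the log2 scale, Il1b of -0.92 ± 0.48, adjusted p = 0.423 and Csf3r of -0.55 ± 0.32, adjusted p = 0.435. The per-library values of Csf3r were 104, 72.5, 101, 82.4 and 139 CPM in unloaded and 91.5, 154, 130.4, 91.4 and 132 CPM in loaded vehicle libraries, and 145, 163, 219 and 207 CPM in unloaded and 134, 136, 179, 94.8 and 211 CPM in loaded DEX libraries. Il1b was at 4.46, 12.3, 11.4 and 6.18 CPM in unloaded and 4.56, 8.43, 11.5, 5.35 and 6.50 CPM in loaded DEX libraries.

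Some other genes of the neutrophil program were higher under DEX. The share of all genes called higher, 2.86% in unloaded and 12.9% in loaded tibiae, is the background for the counts that follow. Of 11 further granule proteins tested, 8 were higher in unloaded and 5 in loaded tibiae, and 1 was lower in loaded tibiae. In unloaded tibiae the largest changes were those of Lrg1, Hp, Mmp25 and Pglyrp1, all secreted or granule proteins, with Lrg1 (1.63 ± 0.27, adjusted p = 0.00931) at the top. In loaded tibiae, Lrg1 was again first, at 1.20 ± 0.20 (adjusted p = 0.00313), and Cd63, a granule and lysosome membrane protein of many cell types, was lower (-0.76 ± 0.16, adjusted p = 0.00880). Of 16 oxidase and effector genes, 11 were higher in unloaded and 5 in loaded tibiae. They were led in both limbs by Clec4e, a lectin receptor, at 1.44 and 1.24, and by Alox5ap, which serves leukotriene synthesis, at 1.19 and 1.20 log2 fold change. Ncf4 and Ncf1, subunits of the phagocyte oxidase, were higher in unloaded tibiae (1.18 and 1.16).

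Of the retention and trafficking genes, 7 of 15 were higher in unloaded and 3 of 14 in loaded tibiae. Of the genes that passed, C5ar1, the receptor for complement C5a, changed most, with 1.46 and 1.24, and Cxcr2, a chemokine receptor that draws neutrophils out of the marrow, was higher by 1.10 and 0.93 log2 fold change. The loaded counts of this list and of the next are near the background. Of 15 granulopoiesis factors and receptors, 3 were higher in each limb: Csf2rb, Spi1 (which encodes PU.1) and Klf5 in unloaded, and Klf5, Cebpd and Flt3 in loaded tibiae. The median log2 fold change over that list was 0.31 in unloaded and 0.21 in loaded tibiae. Of 10 proliferation genes, 1 (Plk1) passed in unloaded and 0 in loaded tibiae.

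Markers of other cells moved beside the members. Over all genes, 3.99% were lower in unloaded and 8.35% in loaded tibiae. The summed level of 11 B lineage genes was 305 to 449 CPM in unloaded vehicle and 90.8 to 289 CPM in unloaded DEX libraries, and 298 to 519 and 75.6 to 238 CPM in loaded libraries. Of these, 5 were lower in unloaded and 10 in loaded tibiae. Genes of osteoblasts and osteocytes, 10 in number, summed to 42578 to 146482 CPM and 7263 to 36621 CPM in unloaded vehicle and DEX libraries and to 64982 to 96269 and 5188 to 24276 CPM in loaded ones, and 6 and 9 of them were lower. The monocyte and macrophage list, which shares lineage with neutrophils, summed to 672 to 979 and 836 to 1141 CPM in unloaded and 992 to 1143 and 530.1 to 1076 CPM in loaded libraries. Of 11 such genes, Ly6c2 and Ccr2 were higher in unloaded tibiae, while in loaded tibiae Ly6c2 was higher and Adgre1 and Cd68 were lower. No erythroid, megakaryocyte, or T and NK cell gene passed in either limb, and 1 of 8 eosinophil and basophil genes was lower in unloaded and 3 in loaded tibiae. Of 6 osteoclast genes, 0 passed in unloaded and Ctsk was lower in loaded tibiae. Skeletal muscle genes, 6 in number, summed to 6795 to 29245 CPM in unloaded vehicle and 1956 to 12572 CPM in unloaded DEX libraries and to 3333 to 16879.7 and 5812 to 19339 CPM in loaded ones, and 0 of them passed in either limb. Their log2 fold changes were -1.95 to -1.39 in unloaded and 0.30 to 0.64 in loaded tibiae. With edgeR, 6 of 6 had an unadjusted p under 0.05 in unloaded tibiae, against 4848 of 19738 genes, and 0 in loaded tibiae. In the interaction 6 of 6 did, with a median of 2.29, and 0 passed. The part of these shifts in the members' rise was not tested. Of 5 genes known to be induced by glucocorticoids, Fkbp5 and Zbtb16 were higher in loaded tibiae, and in unloaded tibiae 0 were higher and Sgk1 was lower. Fkbp5 had a log2 fold change of 0.87 (adjusted p = 0.00777) in loaded and 0.81 (adjusted p = 0.0603) in unloaded tibiae. Zbtb16 was at 1.01 and -0.07, respectively.

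S100a8 did not follow S100a9 from library to library. Both proteins pair in calprotectin, both transcripts are about as short (longest annotated forms of 498 and 519 bases), and yet S100a8 minus S100a9 on the log2 CPM scale split the libraries into 2 sets. In 7 libraries (unloaded vehicle 1, 2 and 5, loaded vehicle 5, unloaded DEX 1, and loaded DEX 1 and 4) it was -0.12 to 0.89, and in the other 13 it was -1.24 to -0.85. The same 7 libraries held 51938 to 58662 CPM on 2321 protein-coding genes whose longest transcript is under 1000 bases, and the other 13 held 28368 to 42561 CPM. The 7 libraries come from all 4 groups, 3 of them from unloaded vehicle. Within groups, S100a8 was higher in these libraries, with a median deviation from the group mean of 0.44 against -0.17 log2 CPM in the others, and Slpi (0.37 and -0.09), Camp (0.32 and -0.11) and Wfdc21 (0.29 and -0.12) went the same way. Ltf (-0.76 and 0.33), Cd177 (-0.64 and 0.33), Itgam (-0.57 and 0.30), Chil3 (-0.45 and 0.16) and Fcnb (-0.42 and 0.25) went the other way. So did the primary granule genes Prtn3 (-0.38 and 0.23), Ctsg (-0.35 and 0.23), Elane (-0.15 and 0.16) and Mpo (-0.15 and 0.12). The primary-minus-late difference was not taken separately for the 2 sets.

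Leaving out these 7 libraries changed which members passed. Among the other libraries, S100a8 had a log2 fold change under DEX of 1.42 in unloaded (adjusted p = 0.0458) and 1.24 in loaded tibiae (adjusted p = 0.0286). For Camp the values were 1.03 (adjusted p = 0.0833) and 1.01 (adjusted p = 0.0296), and for Wfdc21 they were 1.55 (adjusted p = 0.0578) and 1.63 (adjusted p = 0.0179). Slpi, below 0 in unloaded tibiae with all libraries, was at 0.63 (adjusted p = 0.135) there and at 0.54 (adjusted p = 0.140) in loaded tibiae. In this set, 25 members were higher in loaded tibiae (3 DEX and 4 vehicle libraries), against 6.29% of all genes, and 8 in unloaded tibiae (3 DEX and 2 vehicle libraries), against 0.75%, and the median log2 fold change of the members was 1.17 and 1.23, respectively. This choice of libraries was made after seeing the data. What sets the 7 libraries apart was not tested.

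**Figure D5:**
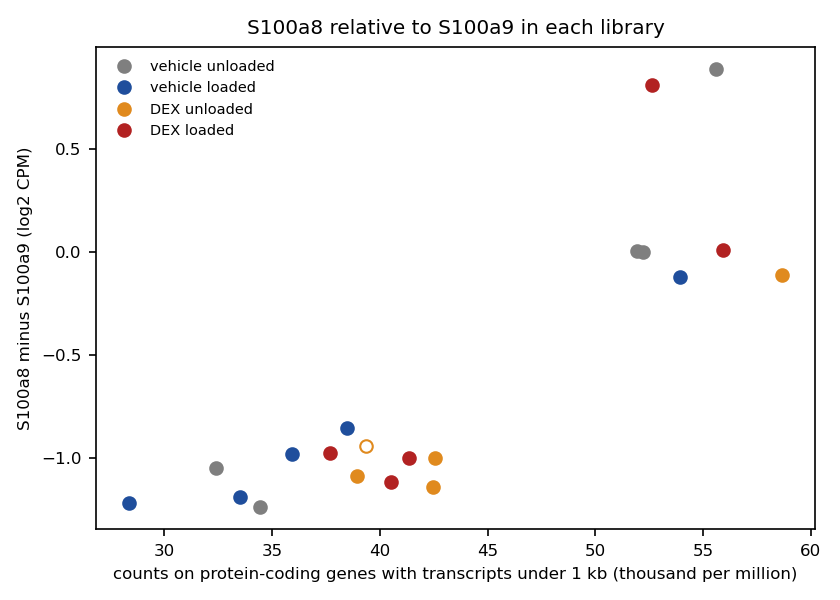
S100a8 minus S100a9 in log2 CPM (y axis) against the counts on protein-coding genes with transcripts under 1 kb (x axis, in units of 1000 CPM), 1 point per library, colored by group, with the unloaded DEX library 4 open. The 7 libraries at the upper right (-0.12 to 0.89) come from all 4 groups, and no library lies between them and the 13 at the lower left.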

How the data were processed

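RNA-seq of tibiae was carried out by the authors on 20 libraries made with a stranded total RNA kit. Reads were aligned with STAR 2.7.10a to GRCm38 and summed with RSEM 1.2.28, per the submitters' processing notes. The deposited values are expected counts per gene, not scaled for library size. They were rounded to whole numbers here. The annotation release is not given in the sources used here, so gene positions and transcript lengths were taken from GENCODE M21 (54409 of 54446 identifiers matched).

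Genes were kept by edgeR's filterByExpr within the groups compared, scaled by TMM and tested with edgeR's quasi-likelihood test (edgeR 4.0.16, R 4.3.3), with Benjamini-Hochberg adjustment over all genes tested and a threshold of 0.05. SE is the log2 fold change divided by the root of F. DESeq2 1.42.0 was an alternative. CPM and log2 CPM (prior count 2) were scaled over the 22659 genes kept in all 20 libraries. The design was checked on simulated counts.

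DEX in unloaded tibiae, DEX in loaded tibiae, loading under each treatment and the interaction were tested. The unloaded DEX library 4 was left out because the study's results text removes a dataset DEX-4 as an outlier and does not name its tibia. The figure it refers to was not used here. The unloaded tibia was taken as in an earlier report on the series, and the other readings of DEX-4 were alternatives. The labels number vehicle samples 1 to 5 and the columns skip 3 and reach 6, so the last column of each vehicle group was mapped to its group only. Labels do not say which mouse a number marks, and p-values measure only the spread between these samples. Library totals of 4641437 to 13032018 counts limit the precision of low members, and counting error is only part of the spread between libraries.

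All 31 members are accounted for. Values in every library are given for the 4 primary granule genes and, per comparison, for at most the 6 called members with the largest change in each direction, or for the 3 with the lowest p if none was called. Of each pathway list, at most 4 called genes per comparison are named. The members and lists were chosen with earlier results of these data known. Covariates and library sets based on short transcripts, with a limit of 45000 CPM, were added after the data were seen. Promoter windows are those of RefSeq on GRCm38.p6, and 29 of 31 members matched.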

Additional observations from a re-analysis of the deposited data

Results flagged for a closer look

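Within the 4 groups of 5 libraries, the unloaded DEX library 4 included, 132 sets of values were searched for a library far from the rest by Dixon's criterion, and 7 were found. Chance alone gives about 1 in 20. In the unloaded DEX group, library 2 was low for Camp, at 8.46 log2 CPM against 9.06 to 9.30 in the others. The same library was low for Wfdc21 (5.43 against 6.31 to 6.61) and for S100a8 (9.77 against 10.45 to 10.71). In the loaded vehicle group, library 1 was low for Lcn2, at 8.26 against 8.88 to 9.03 log2 CPM, and for Retnlg, at 5.42 against 6.23 to 6.53. The primary-minus-late difference of the loaded DEX library 4 was 0.33 against 0.81 to 0.96 on the log2 scale. That library also had the lowest total, 4641437 counts, and the highest receptor gene level, 8885 CPM. S100a8 minus S100a9 in the unloaded DEX library 1 was -0.11 on the log2 scale, against -1.14 to -0.94 in the others, beside the highest short transcript level of the 20 libraries, 58662 CPM. Among the 4 unloaded DEX libraries used in the tests, Camp (library 2, against 9.18 to 9.30) and S100a8 minus S100a9 (library 1, against -1.14 to -0.9995) remained past the criterion, and Wfdc21 and S100a8 did not. The part of these levels in the values was not tested.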

How the results depend on the processing

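Under alternatives other than leaving out a library, 648 values of single members kept their direction and their side of the threshold, 108 lost the call, 17 gained one and 5 changed sign. Those 5 are of members not called. Loaded Il1b (-0.15) went to 0.43 with the receptor covariate and 0.18 with the short transcript covariate, loaded Slpi (0.53) to -0.086 with the receptor covariate, loaded Clec4d (0.13) to -0.049 with no filter, and unloaded Slpi (-0.13) to 0.63 in the libraries under the short transcript limit. DEX called 22 members in loaded tibiae, 15 to 23 with 1 library left out, 9 with the replicate block, 7 in the libraries of that fit without the block and 1 with the receptor covariate. The values of that covariate did not overlap between the loaded groups. In unloaded tibiae it called 25, 5 to 27 with 1 library left out, 8 with the replicate block, 12 in its libraries without the block and 8 in the libraries under the short transcript limit. Loading and the interaction called 0 members under each alternative. Whether replicate numbers pair the limbs of a mouse is not stated, and same-numbered libraries correlated at -0.30 to 0.25 with vehicle and at 0.03 to 0.36 with DEX in their deviations, with 2 of 9 correlating best with their own number, so the block was not made the main fit. The primary-minus-late change was -0.14 in loaded tibiae (-0.19 to -0.04 with 1 library left out), 0.18 with the median of the late genes, -0.44 with secondary granule genes only, and 0.16 with mature genes only and the loaded DEX library 4 left out. In unloaded tibiae it was 0.04 (-0.03 to 0.09), 0.20 and -0.17, respectively.

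In loaded tibiae 4206 genes were called, 9016 with no filter, 8446 with all 4 groups in the model, 2203 with at least 10 counts in every library, 2326 and 1120 with the block and without it in its libraries, 28 with the receptor covariate, 1568 with the short transcript covariate, 2690 in the libraries under the limit, and 2696 without the unnumbered vehicle library. In unloaded tibiae 1351 were called, 2411 with DESeq2, 2922 with all 20 libraries, 2592 with the receptor covariate, 3098 with the short transcript covariate, 670 under the limit, 520 and 566 for the block, and 129 without DEX library 3, 530 without vehicle library 5, 828 without DEX library 2 and 830 without vehicle library 4. For loading in vehicle-treated mice, 0 genes were called with edgeR, 141 with DESeq2, 50 with no filter and 4 with all groups in the model, and for the interaction 0, 50 with DESeq2 and 1 with no filter. Without the unloaded DEX library 5, 39 genes were called for loading in DEX-treated mice and 54 for the interaction. Without the unnumbered unloaded vehicle library these were 2 for loading with vehicle and 6 for the interaction, without the loaded vehicle library 5 they were 4 and 1, and without the unloaded vehicle library 1 it was 1 for loading with vehicle. The causes were not tested.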
